A study of Mus musculus with 67 samples.

Results

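Interferon response and antigen presentation genes were read in single vascular smooth muscle cells (VSMCs) grown from the descending aorta of male C57Bl6 mice aged 3 to 4 months. The groups were 45 cells at passage 2 and 22 cells at passage 1, with 1 RNA library per cell. The labels describe no interferon or virus treatment, and both groups shared strain, sex, age and medium with 10% serum and 1% antibiotic. Passage 1 cells had stood undisturbed for 5 days, a time recorded for passage 2 samples as well. Passage 2 cells came from a subculture by trypsin. Which animal or culture a cell came from is not labelled, so a passage counts as 1 sample and differences between passages carry no p-value. Each passage also has its own library set, so passage and library set cannot be told apart. The 36 genes described were chosen by name, out of 39179 gene rows, for their known place in the interferon response and in MHC class I antigen presentation.

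Interferons are secreted proteins that warn neighbouring cells of infection. Type I interferons bind the Ifnar1 and Ifnar2 chains and act through factors that include Stat2 and Irf9, whereas interferon gamma binds Ifngr1 and Ifngr2 and induces Irf1. The genes they induce block viral entry, translation and budding. They also load peptides from the proteasome onto MHC class I molecules, which show them to T cells, and most nucleated cells hold some class I at rest.

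Values are gene counts divided by the authors' size factor of each cell (normalized counts). A cell was counted as positive for a gene at a value of 10 or more. Reads per cell were 548419 to 1509589 at passage 2 and 817021 to 1561129 at passage 1. At least 3 of 10 smooth muscle markers reached 10 in 45 of 45 passage 2 cells and in 19 of 22 passage 1 cells. At least 3 of 10 endothelial markers did so in 2 passage 2 cells and 5 passage 1 cells, and the cycling markers Mki67 or Top2a in 10 passage 2 cells and 16 passage 1 cells. At least 3 of 8 fibroblast markers did so in 18 passage 2 cells and 14 passage 1 cells. No cell of either passage had 3 macrophage or 3 lymphocyte markers at 10. Ptprc, Adgre1, C1qa, C1qb, C1qc, Mrc1 and Cd14 reached 10 in none of the 67 cells, and Csf1r reached it in 7 passage 2 cells and 9 passage 1 cells. Cd68 also reached 10 at both passages and Lyz2 at passage 2 only, each in no more cells than Csf1r. The summed macrophage list ran from 0 to 295.3 in passage 2 cells and from 0 to 150.1 in passage 1 cells. Of 12 red cell and striated muscle genes, none reached 10 in more than 1 cell of a passage.

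The members ranged from genes at 10 or more in every cell, through genes at that value in part of the cells, to genes with no read. Ifitm2, Ifitm3 and B2m, 3 members, were at 10 or more in every passage 2 cell, where 1.71% of the 20000 genes with a read in any cell were. Ifitm2 and B2m, 2 members, were so in every passage 1 cell, against 3.69% of genes. In at least 50% of cells the count was 7 members at passage 2 (Ifitm2, Ifitm3, Irf1, Ifngr2, B2m, H2-D1 and Tapbp), with 15.6% of genes. It was 8 members at passage 1 (Ifi35, Ifngr1, Ifitm2, Ifitm3, Ifngr2, B2m, H2-D1 and Tapbp), with 23.4% of genes. At the other end, 6 members reached 10 in no passage 2 cell (Isg15, Mx2, Oas1a, Rsad2, Ifitm1 and Nlrc5), where 32% of genes did so. At passage 1 there were 9, the same 6 with Mx1, Oasl2 and Irf7, and 37.3% of genes. A count of 0 in 45 passage 2 cells allows a share of up to 6.67%, and 0 in 22 passage 1 cells up to 13.6%, by a limit of 3 cells and for counting error only. The exact 95% intervals of the same shares reach 7.87% for 45 passage 2 cells and 15.4% for 22 passage 1 cells. Mx2 and Oas1a had no read in any cell and are not among the 20000 genes.

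**Figure D1:**
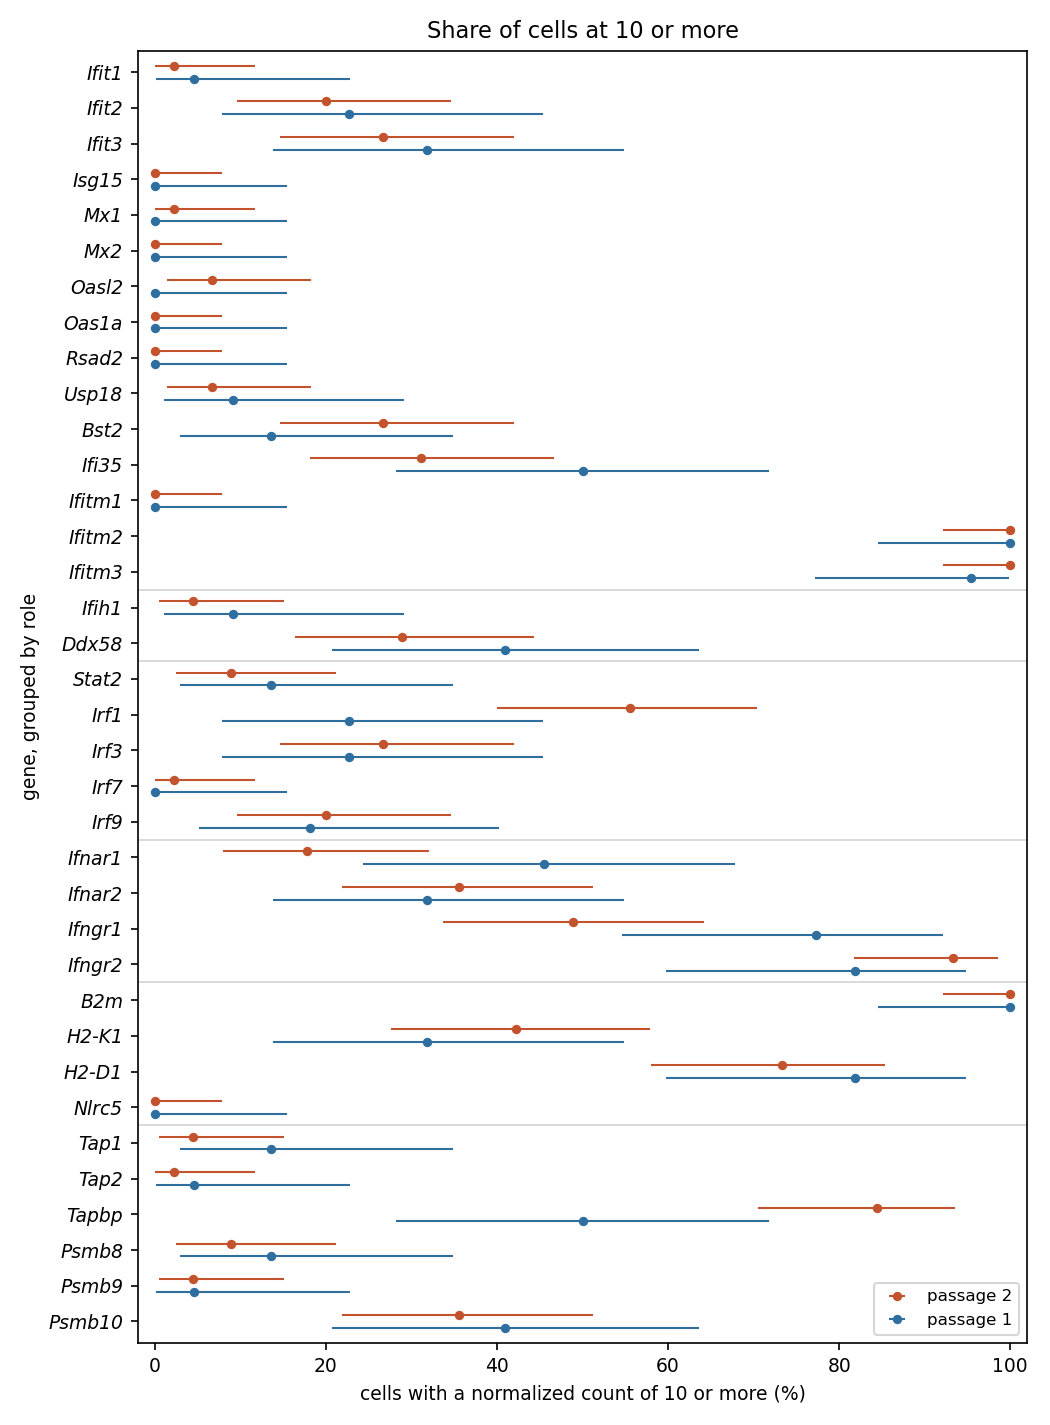
Share of cells with a normalized count of 10 or more (x axis, percent) for each of the 36 members (y axis, grouped by role, grey lines between roles). Points are shares over 45 passage 2 cells (upper) and 22 passage 1 cells (lower), and bars are exact Clopper-Pearson 95% intervals. Ifitm2 and B2m stand at 100% in both passages, and Isg15, Mx2, Oas1a, Rsad2, Ifitm1 and Nlrc5 at 0 in both.

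The start sites of the abundant and the silent members could be read side by side. RefSeq promoter windows on GRCm38.p6, from 250 bases before to 50 bases after a start, were found for 31 of the 36 members. The core of the interferon-stimulated response element, bound by Stat2 with Irf9 and by Irf factors, was searched on both strands as a pair of GAAA tetramers with any 2 bases between them. It lay in 12 of the 31 members (38.7%) and in 3.99% of all 27025 genes with a window. The 12 included all 3 members at 10 or more in every passage 2 cell and 3 of those at 10 in no cell of either passage, Isg15, Oas1a and Rsad2. TTCNNNGAA, the core of the gamma-activated site, reads the same on both strands. It lay in 9 of the 31 members (29%) and in 9.55% of all genes, and its match overlapped the other motif in Ifitm3 and Bst2. These matches are letters in a window and were not tested as binding sites. The members were chosen for their known place in the interferon response and in antigen presentation. Their shares beside those of all genes therefore describe that list and not these cells. The stretches below set the 2 ubiquitous genes of both passages beside 4 interferon-induced genes that reached 10 in a minority of cells or in none, with Irf1 as the example of the second motif, and capitals mark the motif on either strand.
Ifitm2, chr7:140955973-140956032, minus strand: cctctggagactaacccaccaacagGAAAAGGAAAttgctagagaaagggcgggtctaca
B2m, chr2:122147523-122147582, plus strand: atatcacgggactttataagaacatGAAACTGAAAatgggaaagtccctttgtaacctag
Ifit3, chr19:34583365-34583424, plus strand: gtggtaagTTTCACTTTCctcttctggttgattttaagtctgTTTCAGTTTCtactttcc
Ifit1, chr19:34640769-34640828, plus strand: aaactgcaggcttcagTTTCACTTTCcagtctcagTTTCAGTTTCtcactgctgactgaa
Isg15, chr4:156200856-156200915, minus strand: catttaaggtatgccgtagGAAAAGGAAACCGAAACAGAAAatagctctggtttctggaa
Rsad2, chr12:26456538-26456597, minus strand: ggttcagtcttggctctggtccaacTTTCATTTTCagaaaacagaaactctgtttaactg
Irf1, chr11:53769898-53769957, plus strand: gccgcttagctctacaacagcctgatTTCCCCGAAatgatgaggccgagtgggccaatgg
Isg15 held 3 matches in tandem within this stretch and Ifit1 and Ifit3 held 2 each, and Ifitm2, B2m and Rsad2 held 1. Ifitm3, not shown, held 2 in its window. Isg15 and Rsad2 had the fewest reads of the 7 genes shown.

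Among the receptors, the 2 chains that bind interferon gamma were at 10 or more in more cells than the 2 chains for type I interferon. Ifngr2 (chr16:91547072-91565623 on GRCm38) was 0, 59.4 and 254 at its lowest, median and highest in passage 2 cells, and 0.756, 26.6 and 112 in passage 1 cells. The value of 10 was reached in 42 of 45 passage 2 cells and 18 of 22 passage 1 cells. Its mean was 76.2 ± 60.4 at passage 2 and 36.3 ± 31.8 at passage 1 (SD over 45 and 22 cells), a log2 ratio of means of 1.05. The groups overlapped, and the passage 2 cell was the higher in 72.6% of passage 2 and passage 1 cell pairs. Ifngr1, the ligand-binding chain, lay the other way. It was at 10 or more in 22 of 45 passage 2 cells and 17 of 22 passage 1 cells, with medians of 7.94 at passage 2 and 50.1 at passage 1 and a log2 ratio of -0.77. Without the endothelial marker cells its means were 50.7 at passage 2 and 55.1 at passage 1, and the ratio was -0.12. Both gamma chains were at 10 or more together in 21 of 45 passage 2 cells and 14 of 22 passage 1 cells. These shares are 46.7% at passage 2 (exact 95% interval 31.7 to 62.1) and 63.6% at passage 1 (40.7 to 82.8).

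Ifnar1 was at 10 or more in 8 of 45 passage 2 cells and 10 of 22 passage 1 cells, with medians of 1.10 at passage 2 and 4.02 at passage 1. Ifnar2 was so in 16 of 45 passage 2 cells and 7 of 22 passage 1 cells, with medians of 3.23 at passage 2 and 4.01 at passage 1. Both type I chains were at 10 or more in the same cell in 3 of 45 passage 2 cells and 3 of 22 passage 1 cells. With any read counted, Ifnar1 was present in 26 passage 2 cells and 15 passage 1 cells, and Ifnar2 in 30 passage 2 cells and 19 passage 1 cells. By the same count Ifngr1 was present in 38 passage 2 cells and 21 passage 1 cells, and Ifngr2 in 44 passage 2 cells and 22 passage 1 cells. Of the 14 interferon genes with a row, among them Ifnb1, Ifng and several Ifna genes, 13 had no read in any cell. The exception was Ifnz, with 34 reads in a single passage 2 cell.

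The RNA sensors were low. Ddx58, the cytosolic sensor RIG-I, was at 0, 5.16 and 214 in passage 2 cells and at 0, 5.73 and 132 in passage 1 cells (lowest, median, highest). Values of 10 or more occurred in 13 of 45 passage 2 cells and 9 of 22 passage 1 cells, and the log2 ratio was 0.026. Ifih1, the sensor of long double-stranded RNA, was at 10 or more in 2 cells of each passage. Its highest passage 2 value, 302, compared with 35.1 in the next cell.

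Irf1 had the highest log2 ratio of the members. It is a transcription factor induced by interferon gamma that acts on antigen presentation genes. Irf1 (chr11:53770014-53778374) ran from 0 through a median of 29.2 to 2234 in passage 2 cells, and from 0 through 0.845 to 315 in passage 1 cells. Cells at 10 or more numbered 25 of 45 at passage 2 (55.6%) and 5 of 22 at passage 1 (22.7%). The groups overlapped, since 11 passage 2 cells had no Irf1 read at all. Means were 159 ± 365 at passage 2 and 39.1 ± 91.7 at passage 1, a log2 ratio of 2.00. Cell 2 held 31.2% of the passage 2 sum, and without it the ratio was 1.49. Cell 7 held 36.7% of the passage 1 sum, and without it the ratio was 2.57. Without cycling cells, which left 35 passage 2 and 6 passage 1 cells, the Irf1 ratio was 0.83.

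The other transcription factors were sparse. Stat2 was at 10 or more in 4 of 45 passage 2 cells and 3 of 22 passage 1 cells, and 66.3% of its passage 2 sum lay in cell 7. Irf9, its partner, was so in 9 passage 2 cells and 4 passage 1 cells. Stat2 and Irf9 were at 10 or more together in 1 passage 2 cell and in none at passage 1. Irf3, which is activated by the RNA sensors, was at 10 or more in 12 passage 2 cells and 5 passage 1 cells. Irf7, the factor that amplifies type I interferon, was so in 1 passage 2 cell and in none at passage 1.

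Of the effectors, the membrane proteins Ifitm2 and Ifitm3, which block viral entry, stood far above the rest. Both lie on chromosome 7, Ifitm2 at chr7:140954837-140955987 and Ifitm3 at chr7:141009586-141010770. Ifitm2 was 135, 378 and 729 at its lowest, median and highest in passage 2 cells, and 86.7, 181 and 386 in passage 1 cells. Its mean was 356 ± 154 at passage 2 and 204 ± 90.9 at passage 1, a log2 ratio of 0.80, with the passage 2 cell higher in 80.5% of pairs. Ifitm3 was 31.9, 199 and 670 in passage 2 cells and 2.34, 82.6 and 327 in passage 1 cells. Its mean was 238 ± 157 at passage 2 and 129 ± 96.3 at passage 1, a log2 ratio of 0.88. Both genes overlapped between passages, with the upper end reached by passage 2 cells. Of the 50-base windows of Ifitm2, 48.5% also occur in other genes, mostly the overlapping Gm45717, so its count is uncertain. Ifitm1, of the same family, had at most 4.26 in any passage 2 cell and 1.33 in any passage 1 cell.

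**Figure D2:**
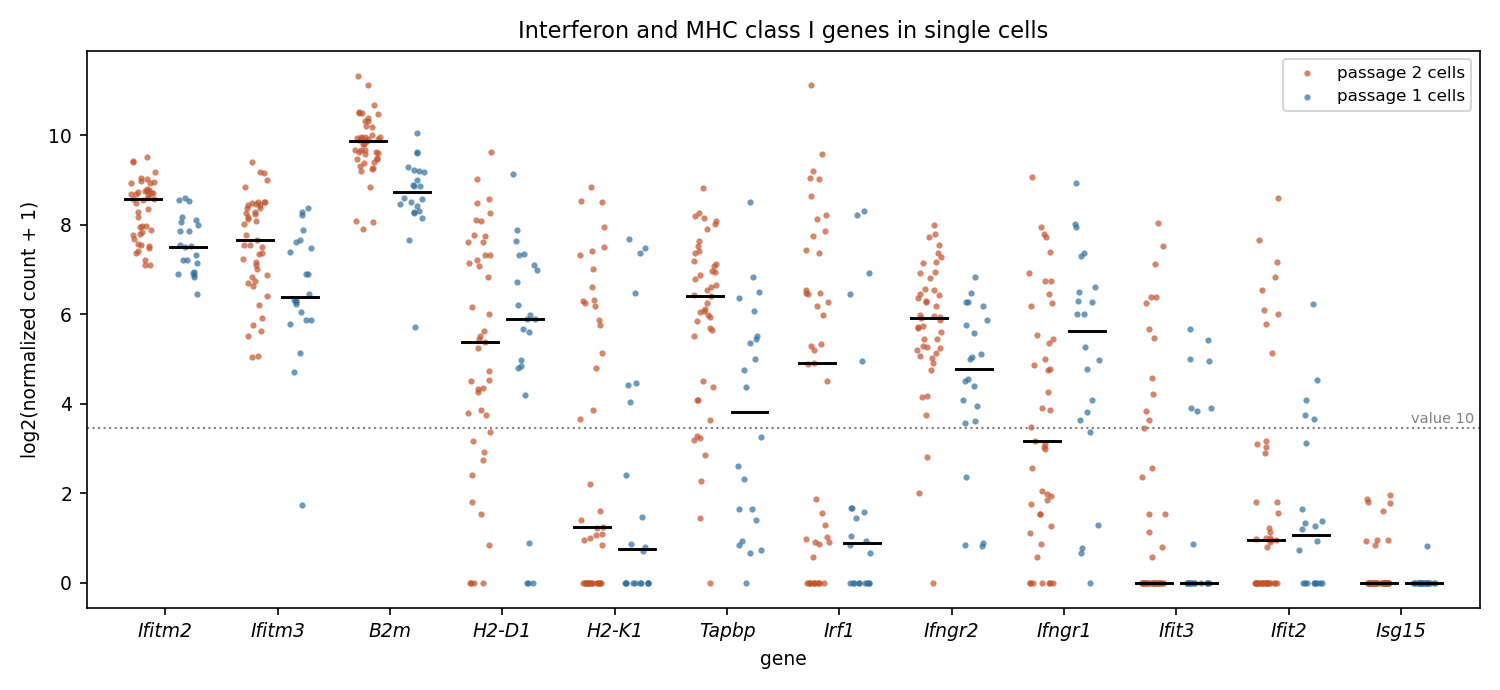
Normalized counts of 12 members (x axis) in every cell, as log2(value + 1) on the y axis, with passage 2 cells left of passage 1 cells for each gene. Each point is 1 cell, black bars are medians, and the dotted line marks a value of 10. Ifitm2, Ifitm3 and B2m form compact bands, Irf1, H2-K1, Ifit2 and Ifit3 split into cells at or near 0 and cells far above 10, and Isg15 stays below 10.

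The Ifit genes, RNA-binding inhibitors of viral translation that lie next to each other on chromosome 19, were each high in a minority of cells. Ifit2 (chr19:34550694-34576419) had a median of 0.931 and a highest value of 388 in passage 2 cells, and a median of 1.09 and a highest value of 73.5 in passage 1 cells. Only 9 of 45 passage 2 cells and 5 of 22 passage 1 cells were at 10 or more. The ratio of its means was 1.80 on the log2 scale, and that of its medians -0.12. The 3 highest cells held 61.02% of the passage 2 sum and 73.02% of the passage 1 sum. The ratio of means was 1.29 without passage 2 cell 17 and 2.53 without passage 1 cell 19. Ifit3 was at 10 or more in 12 passage 2 cells and 7 passage 1 cells, with a median of 0 in both and a highest value of 260 at passage 2 and 49.8 at passage 1. Its log2 ratio was 1.24 (0.86 to 1.56 with each cell left out in turn). Ifit3 shares 51.2% of its 50-base windows with its neighbour Ifit3b, so reads of the pair may be split. Ifit1 was at 10 or more in 1 cell of each passage. At least 1 of these 3 genes was at 10 or more in 20 passage 2 cells and 11 passage 1 cells, but at least 2 were so in only 2 cells of each passage, and all 3 in none.

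Isg15, Rsad2, Mx2 and Oas1a were at or near 0 in every cell, and Mx1, Oasl2 and Usp18 reached 10 in at most 3 cells of a passage. Isg15, a ubiquitin-like modifier and usually among the most strongly induced genes, had 14 reads over 9 passage 2 cells and 1 read at passage 1. Its highest value was 2.91 in any passage 2 cell and 0.756 in any passage 1 cell. Rsad2, the antiviral enzyme viperin, had 0 reads at passage 2 and 1 at passage 1. Mx2, of a GTPase family, and Oas1a, an RNA-sensing synthetase, had no read in any cell. Mx2 is annotated as a polymorphic pseudogene in GENCODE M21, and Oas1a shares 57.6% of its windows with Oas1g. Mx1 reached 14.2 in a single passage 2 cell and 1.55 at most at passage 1. Oasl2 was at 10 or more in 3 passage 2 cells, with a highest value of 73.4, and had 1 read at passage 1. Usp18, which removes Isg15 from proteins and damps the type I receptor, was at 10 or more in 3 passage 2 cells and 2 passage 1 cells.

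Bst2 and Ifi35 were intermediate. Bst2, or tetherin, which holds budding virus at the cell surface, was at 10 or more in 12 of 45 passage 2 cells and 3 of 22 passage 1 cells, with means of 12.7 ± 23.4 at passage 2 and 6.96 ± 18.4 at passage 1. All 3 of those passage 1 cells carried endothelial markers. With the endothelial marker cells left out, Bst2 averaged 11.9 with 11 of 43 passage 2 cells at 10 or more, and it was 0 in all 17 passage 1 cells. Ifi35, an interferon-induced cytosolic protein, was at 10 or more in 14 of 45 passage 2 cells and 11 of 22 passage 1 cells, with a log2 ratio of -0.62.

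A median of 3 of the 15 effectors was at 10 or more per cell in both passages, with a range of 2 to 6 in passage 2 cells and 1 to 7 in passage 1 cells. Ifitm2 and Ifitm3 made up 2 of these in all but 1 cell. Passage 2 cell 4 held 97.8% of all Ifit1 signal of its passage. It had values of 361 for Ifit1, 184 for Ifit3, 355 for Ifit3b, 59.01 for Usp18, 197 for Ddx58, 79.8 for Irf9 and 421 for Eif2ak2, the RNA-activated kinase that stops translation. Isg15, Rsad2, Mx1, Oasl2, Ifit2 and Stat2 were all listed at 0 in that cell. Passage 1 cell 11, an endothelial marker cell, held 99.2% of the Ifit1 signal of its passage, at 145, with 137 for Ifi35, 296 for Irf1 and 68.1 for Usp18. These 2 cells were picked out after their values were seen.

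**Figure D3:**
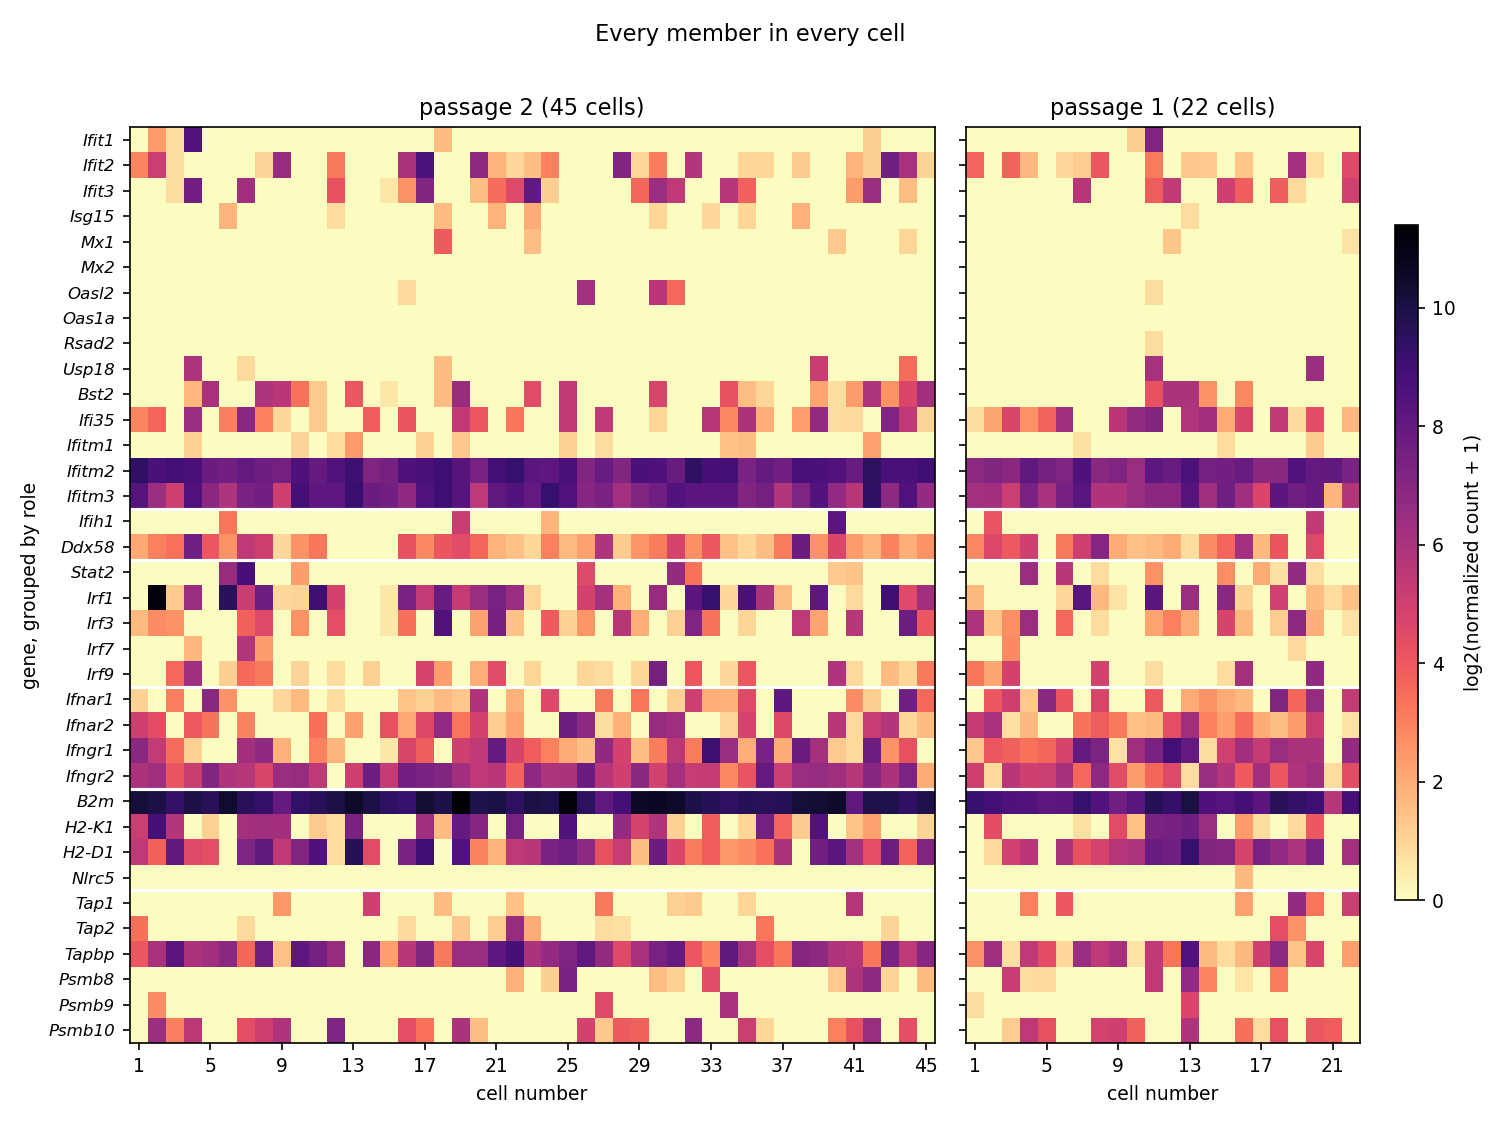
Every member (y axis, grouped by role, white lines between roles) in every cell (x axis, cell number), passage 2 left and passage 1 right, coloured by log2(normalized count + 1). Ifitm2, Ifitm3 and B2m form continuous dark rows, most other members are scattered over single cells, and no cell is high for all Ifit genes.

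B2m, the light chain that every MHC class I molecule needs, was the most abundant member per length of exon in both passages. B2m (chr2:122147686-122153083) was 237, 932 and 2552 at its lowest, median and highest in passage 2 cells, and 51.5, 422 and 1058 in passage 1 cells. Its mean was 968 ± 445 at passage 2 and 464 ± 221 at passage 1, a log2 ratio of 1.06, and the passage 2 cell was higher in 86.97% of pairs. The ratio stayed between 1.00 and 1.15 with each cell left out in turn. It was 1.27 without endothelial marker cells and 1.13 without cycling cells. None of the 50-base windows of B2m occurs in another gene.

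The heavy chains were far less even. H2-D1 (chr17:35262730-35267499) was 0, 40.5 and 790 at its lowest, median and highest in passage 2 cells, and 0, 58.3 and 561 in passage 1 cells. The value of 10 was reached in 33 of 45 passage 2 cells and 18 of 22 passage 1 cells, and the means of 113 ± 160 at passage 2 and 96.7 ± 124 at passage 1 gave a log2 ratio of 0.23. H2-K1 (chr17:33996017-34000347) was 0, 1.37 and 457 in passage 2 cells and 0, 0.688 and 203 in passage 1 cells. It was at 10 or more in 19 of 45 passage 2 cells and 7 of 22 passage 1 cells, with means of 59.5 ± 109 at passage 2 and 31.6 ± 64.0 at passage 1 and a log2 ratio of 0.89.

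H2-K1 at passage 1 lay largely in the endothelial marker cells. Of the 7 passage 1 cells at 10 or more, 4 were among the 5 endothelial marker cells and 3 among the 17 others. With the endothelial marker cells left out, 18 of 43 passage 2 cells and 3 of 17 passage 1 cells were at 10 or more, with means of 60.4 at passage 2 and 3.55 at passage 1 and a log2 ratio of 3.75. H2-D1 averaged 104 in passage 2 cells and 57.3 in passage 1 cells with the same cells left out, a log2 ratio of 0.84. Without cycling cells the ratios were 0.49 for H2-K1 and 0.093 for H2-D1. Neither heavy chain reached 10 in 9 of 45 passage 2 cells and 3 of 22 passage 1 cells, whereas all of these cells held B2m. Of their windows, 9.63% for H2-K1 and 12.8% for H2-D1 occur in other genes. The gene sharing the most was H2-Q10 for H2-K1 (5.18%) and H2-Q1 for H2-D1 (5.87%). Nlrc5, the transactivator of class I genes, had no read at passage 2 and 4 reads in 1 passage 1 cell.

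Peptide supply differed gene by gene. Tapbp, or tapasin, which bridges class I to the peptide transporter, was 0, 84.0 and 450 at its lowest, median and highest in passage 2 cells, and 0, 14.1 and 364 in passage 1 cells. Cells at 10 or more numbered 38 of 45 at passage 2 (84.4%, exact interval 70.5 to 93.5) and 11 of 22 at passage 1 (interval 28.2 to 71.8). Its log2 ratio was 1.32, and 1.94 without passage 1 cell 13, with the passage 2 cell higher in 76.6% of pairs. Of Tapbp windows, 23.2% occur in other genes, mainly the overlapping Gm19412. The transporter itself was rarely at 10 or more. Tap1 was so in 2 passage 2 cells and 3 passage 1 cells, Tap2 in 1 of each passage, and no cell had both at 10 or more. With any read counted, Tap1 was present in 9 passage 2 cells and 6 passage 1 cells. By that count Tap2 was present in 11 passage 2 cells and 2 passage 1 cells.

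Psmb8, Psmb9 and Psmb10 are the catalytic subunits of the immunoproteasome, which take the places of the standard subunits Psmb5, Psmb6 and Psmb7. Psmb10 was at 10 or more in 16 of 45 passage 2 cells and 9 of 22 passage 1 cells, Psmb8 in 4 passage 2 and 3 passage 1 cells, and Psmb9 in 2 passage 2 cells and 1 passage 1 cell. The immune subunits took 10.2% of the summed reads of the 6 genes at passage 2 (9.70 to 10.8) and 5.71% at passage 1 (5.30 to 6.15, exact intervals for counting error only). Per cell the median share was 3.20% at passage 2 and 2.24% at passage 1, and 14 passage 2 cells and 7 passage 1 cells had no immune subunit read. Without endothelial marker cells the summed share at passage 1 was 3.64%. The standard subunits also differed, with means of 138 at passage 2 and 225 at passage 1 for Psmb6, 47.4 at passage 2 and 101 at passage 1 for Psmb7, and 41.7 at passage 2 and 27.2 at passage 1 for Psmb5. Psmb5 shares 54.1% of its windows with other genes, mostly Gm3375.

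Passage 1 cell 13, which carried endothelial and cycling markers, held the highest passage 1 value of 10 of the 27 members that reached 10 at passage 1. These 10 were Ifitm2, Ifitm3, Ifnar2, B2m, H2-K1, H2-D1, Tapbp, Psmb8, Psmb9 and Psmb10. At passage 2 no cell held the highest value of more than 2 of 30 such members. The 2 counts are not alike, because a highest value is shared out over 22 cells at passage 1 and 45 at passage 2. How many of all genes were highest in each cell is not given. Whether endothelial identity takes part in the class I values of that cell was not tested.

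Per kilobase of exon the order at passage 2 was B2m at 1125, Ifitm2 at 543, Ifitm3 at 352, H2-D1 at 43.97, Irf1 at 39.97, Tapbp at 29.9, H2-K1 and Ifngr2 at 20.2 and Ifngr1 at 17.9 normalized counts per kb. The first 4 kept this order at passage 1, at 539, 311, 190 and 37.5, followed by Ifngr1 at 30.7 and Ifi35 at 16.8. Among the 8635 genes kept for ratios that have a length, B2m exceeded 99.8% at passage 2 and 99.5% at passage 1. Irf1 exceeded 87.2% at passage 2 and 56.0% at passage 1. From H2-D1 down to Ifngr1, neighbours in the order overlapped across cells, and each had passage 2 cells at 0.

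Ratios between passages were summarised for genes whose mean reached 10 in either passage and that had a read in 25% or more of the cells there. This kept 20 members. Of these, 16 passed in both passages, Ifit2, Ifit3 and Bst2 passed only through passage 2, and Stat2 only through passage 1. The remaining 16 members are left out of these summaries. Of the 20, 6 were 2-fold or more higher at passage 2 (Irf1, Ifit2, Tapbp, Ifit3, B2m and Ifngr2), beside 14.4% of all genes kept. Irf1, Tapbp, B2m and Ifngr2 among them passed in both passages. Ifit2 and Ifit3 passed only where they are higher, so their place in this count follows in part from the filter. The same holds for Bst2 among the members above 0, and these genes also enter the medians below. None was 2-fold or more lower, beside 19.4% of all genes, and 16 were above 0, beside 45.3%. The median log2 ratio was 0.79, and -0.11 over all genes kept. By role it was 0.84 over 6 effectors, 0.58 over 4 transcription factors, 0.11 over 4 receptor chains, 0.89 over 3 MHC genes and 0.98 over 2 peptide supply genes. The cells behind these values also differed in cycling markers (10 of 45 at passage 2, 16 of 22 at passage 1) and in genes detected (medians 7257 at passage 2 and 8477.5 at passage 1), and the part of these in the ratios was not tested beyond the subsets given.

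**Figure D4:**
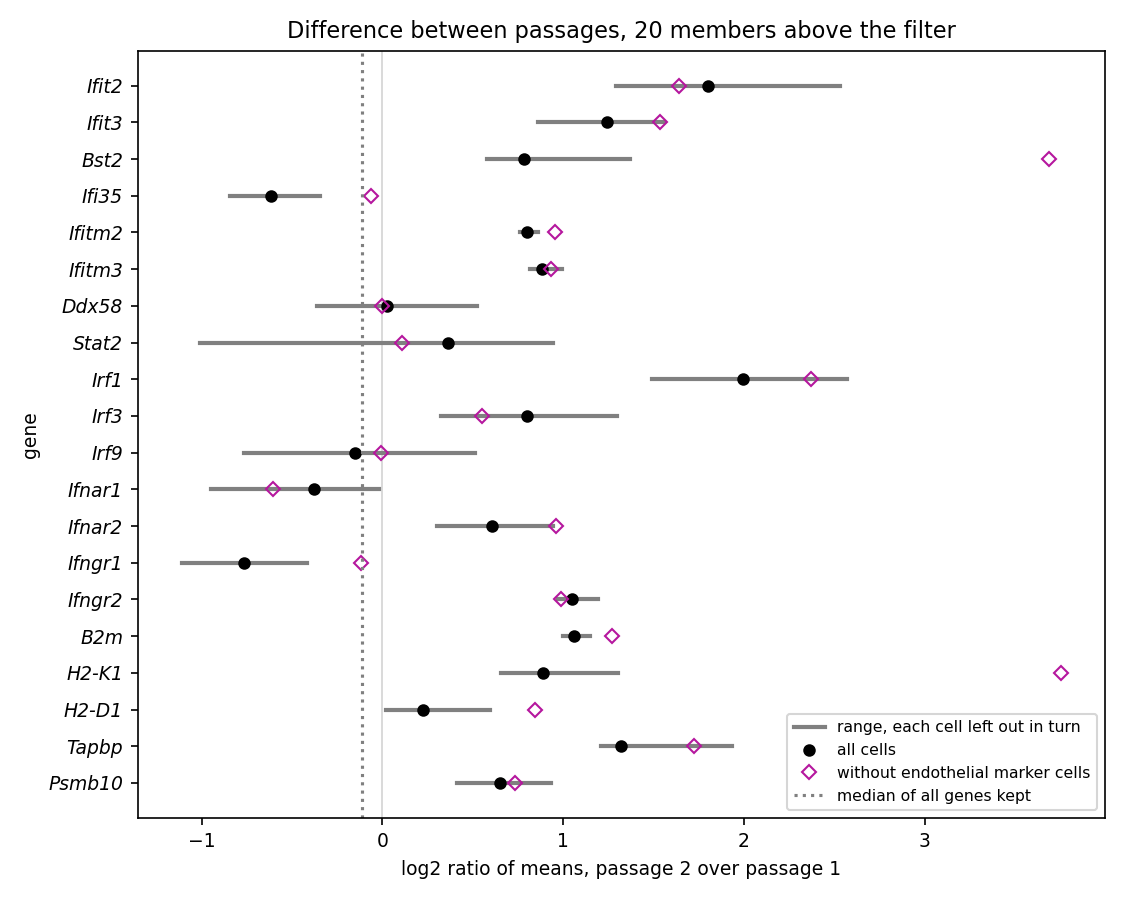
Log2 ratio of mean normalized count, passage 2 over passage 1 (x axis), for the 20 members above the filter (y axis). Black points use all cells, grey bars span the values with each cell left out in turn, and open diamonds omit the endothelial marker cells. The dotted line is the median of all genes kept, -0.11. The diamonds of H2-K1 and Bst2 lie far right of their points, and that of Bst2 is set by the added 1 because no passage 1 cell then has a read.

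Co-expression of members was close to that of all gene pairs at passage 2 and above it at passage 1. It was described by Spearman correlation over cells, which share a library set and differ in depth, for members at 10 or more in at least 20% of the cells. At passage 2 the median over 153 pairs of 18 members was 0.040, and 0.025 over all gene pairs. Of the 153, 6 reached 0.3, beside 3.74% of all pairs, and 1 reached -0.3, beside 1.84%. The highest were Ifitm2 with Ifitm3 at 0.49 and Ifi35 with Irf1 at 0.43. At passage 1 the median over 136 pairs of 17 members was 0.15, and 0.041 over all gene pairs, with 38 pairs at 0.3 or more beside 12.7% and 1 at -0.3 beside 6.86%. The highest were Ifngr1 with B2m at 0.62, Ifit3 with Ifngr1 at 0.61 and Ifitm3 with B2m at 0.59. B2m itself followed the number of genes detected at 0.47 over passage 1 cells and at -0.33 over passage 2 cells. After thinning every cell to 500000 reads the passage 1 median over member pairs was 0.069. It was 0.15 without endothelial marker cells and 0.23 without cycling cells. The median over all gene pairs is not given for these settings.

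**Figure D5:**
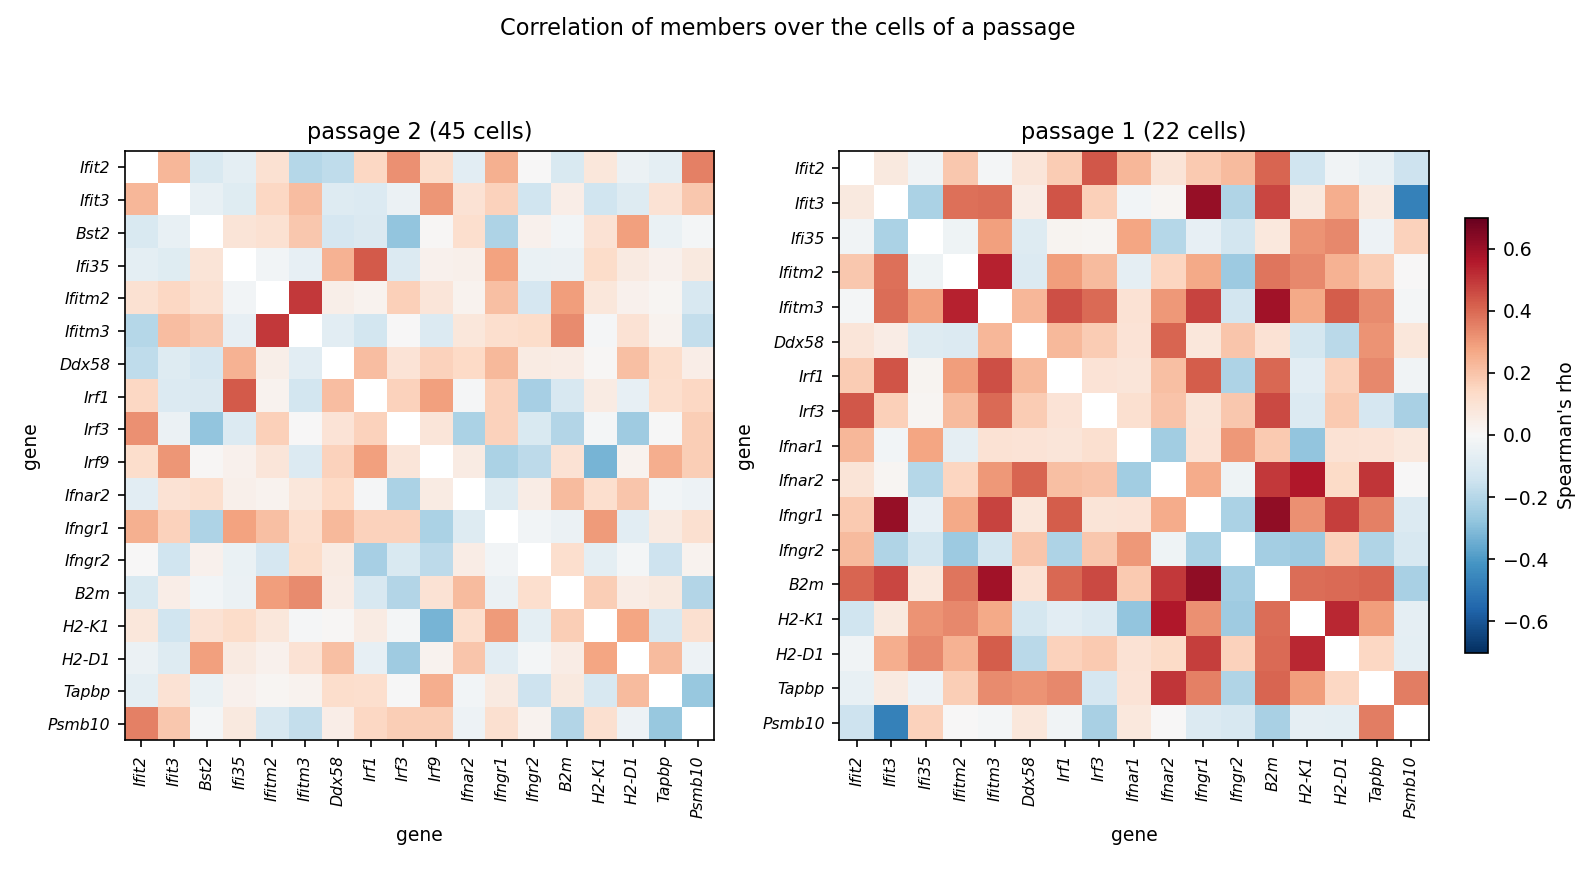
Spearman correlation between members over cells (colour), for 18 members in 45 passage 2 cells (left) and 17 members in 22 passage 1 cells (right), with genes on both axes in the order of their roles. The Ifitm2 and Ifitm3 square is dark in both passages, and the B2m row is redder at passage 1.

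The wider lists held genes that went both ways. Over all genes kept, 14.4% were 2-fold or more higher at passage 2, 19.4% were 2-fold or more lower, and 45.3% were above 0. Whether the counts below depart from these shares was not tested. Among the genes named below, Socs3, Ifit3b and Dtx3l reached a mean of 10 only at passage 2. Tyk2, Mavs, Herc6 and Tapbpl reached it only at passage 1. These genes passed the filter only where they are higher, so their place in the counts follows in part from the filter. Of 20 other signalling genes, 11 were kept, 4 higher and 7 lower at passage 2, 1 and 3 of them by 2-fold, with a median log2 ratio of -0.57. Socs3, a feedback inhibitor of cytokine receptors, was at 10 or more in 10 of 45 passage 2 cells and 0 of 22 passage 1 cells, with means of 13.9 ± 33.5 at passage 2 and 0.130 ± 0.470 at passage 1. Jak1, the kinase shared by both interferon receptors, averaged 302 ± 256 at passage 2 and 496 ± 430 at passage 1. Tyk2, the kinase paired with Ifnar1, had a log2 ratio of -1.84 (-2.52 without passage 2 cell 6), and Mavs, the adaptor of the RNA sensors, one of -1.52. Of 48 other interferon-induced genes, 19 were kept, 10 higher and 9 lower, 5 and 4 of them by 2-fold, with a median of 0.0033. Ifi27, an interferon-inducible gene, averaged 149 ± 103 at passage 2 and 83.9 ± 64.0 at passage 1. Ifit3b and Dtx3l, with ratios of 2.84 and 2.25, were at 1.85 and 1.28 without passage 2 cell 4. Herc6, a ligase for Isg15 in mice, was at -3.24 (-1.99 without passage 1 cell 6), and Pml, which builds nuclear bodies, at -1.78 (-2.64 without passage 2 cell 9). Of 20 other presentation genes, 10 were kept, 6 higher and 4 lower, none and 1 by 2-fold, with a median of 0.13. The chaperone Canx, which folds class I heavy chains, averaged 3806 ± 1509 at passage 2 and 2738 ± 934 at passage 1. Calr, another chaperone of class I, averaged 190.1 ± 185 at passage 2 and 308 ± 146 at passage 1, and Pdia3, which works with both, 834 ± 533 at passage 2 and 795 ± 435 at passage 1. Tapbpl, a relative of tapasin, was at -1.85 (-2.45 without passage 2 cell 7). The class II genes H2-Aa, H2-Ab1 and H2-Eb1 and their transactivator Ciita were below the filter.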

How the data were processed

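Cells were captured on a C1 system and libraries made with Nextera XT reagents, per the labels' protocols. BWA, SAMtools, HTSeq and DESeq with GRCm38 are named, without versions, per the submitters' processing notes. The signal values deposited by the authors are gene counts divided by 1 size factor per cell. Dividing each column by its smallest step recovered whole reads for 100% of values above 0, within 0.001. No count test was run, because each passage is 1 sample. Multi-mapping and strand handling and read length are not given in the sources used here, so genes sharing 50-base windows or overlapping in GENCODE M21 are marked uncertain.

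The log2 ratio is the difference of log2(mean + 1), passage 2 less passage 1, and is compressed for low genes. Shares of cells and the immunoproteasome share have exact Clopper-Pearson 95% intervals. Summed reads of a gene have exact Poisson intervals, which are not printed. All of these intervals cover counting error only. Thinning to 500000 reads removed no cell. Doublets were not called, given 67 cells. Endothelial marker cells had 3 of 10 markers at 10, and cycling cells Mki67 or Top2a at 10. Other genes were named from the 3 with the highest mean and the 2 at each end of the ratios in every list. Eif2ak2, named for 1 cell, and the class II genes were chosen after their values were seen. Members and lists were chosen with earlier results of these data known. The scripts were tested on simulated data. Alternatives were other pseudocounts, filters, scalings, summaries over cells, thinning and subsets of cells. R 4.3.3 with edgeR 4.0.16 (TMM factors only) and Python 3.11.15 with scipy 1.17.1, pandas 2.3.3, numpy 2.4.6 and matplotlib 3.10.9 were used. Replicate numbers follow accession order and only name cells.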

Additional observations from a re-analysis of the deposited data

How the results depend on the processing

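Cells of 1 passage share a culture history and a library set, so ranges over cells say nothing of other cultures, and values under about 10 rest on few reads. Of the 20 kept ratios, all moved by less than 1.5-fold with a pseudocount of 0.1, counts per total reads, TMM factors or thinning. Over medians across cells 11 moved by more, besides Ifit2. With means of log2 values 9 moved by more, and without cycling cells 7. The median of all genes was 0.0035 with TMM factors, -0.60 over medians and -0.62 over means of logs. It was -0.030 without cycling cells and -0.14 without the 25% of cells with the fewest genes. The share of all genes 2-fold apart is not given for the alternative settings, so the 2-fold counts of members below stand without it. Over medians across cells the members' median was 0.00, the receptor median -0.75, 4 members were 2-fold or more lower, and the Ifit2 ratio became -0.12. With means of log2 values the members' median was 0.24 and the receptor median -0.56. In that setting 2 members were 2-fold lower, and Ifih1, 1.29 with means, became -0.023. With no filter the sensor median was 0.66 and 2 members were 2-fold lower, and with a mean of at least 50 the transcription factor median was 2.00 (Irf1 alone). Without cycling cells, which left 6 passage 1 cells, the medians were 1.10 for sensors, 2.17 for transcription factors and 1.93 for peptide supply, 10 members were 2-fold higher, Tap1 became 1.51 from -1.38 with all cells, and the immunoproteasome share was 12.39% at passage 2 and 4.13% at passage 1. Without endothelial marker cells that share was 3.64% at passage 1. Without the 25% of cells with the fewest genes the members' median fell to 0.23. The medians were then 0.22 for MHC genes and -0.32 for peptide supply, and 1 member was 2-fold lower. That setting kept 22 members. Among the 20 of the main setting, Tapbp was then at 1.355 and Psmb10 at 0.24, and the lowest was Ifngr1 at -0.74. The peptide supply median below 0 and the 2-fold lower member thus rest on members outside the 20. Counting any read gave a median of 5 effectors per cell at passage 2. With each cell left out in turn, 4 to 8 members were 2-fold higher and 0 to 1 lower, the transcription factor median was 0.33 to 1.30, and Ifih1 ran from -0.81 to 2.28. The range of the immunoproteasome share was 8.92% to 10.84% for passage 2 and 3.84% to 6.12% for passage 1. The causes were not tested. Of 72 shares of cells at 10 or more, 32 left their 95% interval when any read was counted, 28 at a value of at least 50, 10 without cycling cells, 3 without endothelial marker cells and 0 after thinning. No paired analysis was possible because the replicate numbers only name cells and the labels tie no passage 2 cell to a passage 1 cell.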

Other observations

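The genes whose level over the 45 passage 2 cells was most like the summed log2 level of the 6 kept effectors were ranked among 6798 genes, as a description. Tmem45a, a transmembrane protein gene, came first with a Spearman correlation of 0.59 at passage 2 and 0.13 at passage 1. Bmi1, a Polycomb repressor, followed with 0.53 at passage 2 and 0.28 at passage 1. Ppm1h, a phosphatase, was the tenth, with 0.48 at passage 2 and 0.49 at passage 1. Of the 10, Klhl21, Anapc7, Tfcp2 and Klf3 had correlations below 0 at passage 1. The sum itself followed the number of genes detected at 0.29 over passage 2 cells.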
